A study of Rattus norvegicus with 16 samples.

Results

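Retinae of newborn rats kept under cyclic hyperoxia were compared between post-natal day 6 and post-natal day 5, a step that spans 1 switch of the oxygen cycle. The comparison was chosen by sample title and used 8 of the 16 arrays of the series, 4 of day 6 and 4 of day 5. It covered the 15097 probe sets, of 27342 on the array, that carry 1 gene symbol, and they stand for 14324 genes. The study belongs to work on oxygen-induced retinopathy (OIR), in which changing oxygen disturbs the growth of blood vessels in the immature retina, and it used a strain prone to the disease and one that resists it. The Sprague Dawley rat (SD) is generally known as the prone strain and the Fischer rat (F344) as the resistant strain.

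The groups were SD and F344 retina of day 6 under cyclic hyperoxia, SD and F344 retina of day 5 under cyclic hyperoxia, and the room air retinae of the same strains on day 6 and on day 5. Exposed pups and their mothers entered the chamber no later than 12 h after birth, and 80% oxygen then took turns with 21% oxygen every 24 h. Room air controls were of the same age. The tissue was whole retina, so an array mixes neurons, glia, vessels and blood cells. Each group has 2 arrays, and each array holds RNA of several rats combined after extraction. The submitters mention 3 rats from 2 litters, and whether that describes a single pool is unclear. P values therefore measure the spread between pools. Which of the oxygen levels came before each sampling day is not given in the labels. A day of development and the oxygen switch cannot be told apart among the hyperoxia arrays alone, and the room air arrays give the change over the same day without the switch.

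Hypoxia-inducible factor (HIF) is the transcription factor through which most cells read oxygen. Prolyl hydroxylases mark its alpha subunit for degradation while oxygen is plentiful. When oxygen falls the subunit accumulates, binds DNA at a core written A or G followed by CGTG, and raises genes for glucose uptake, glycolysis, lactate export, mitochondrial restraint and blood vessel growth. In the retina astrocytes and Muller glia release VEGF under low oxygen and draw vessels forward, and high oxygen lowers VEGF and halts them. In the first days after birth the rat retina also leaves its last divisions, while rods and bipolar cells are being made and mature.

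Promoters of HIF target and glycolysis genes that rose are shown because the core can be looked for in them. Sequences are RefSeq's for the rat assembly GRCr8 and cover the 250 bases before each gene's annotated start. The motif searched was ACGTG on both strands, so that its reverse complement CACGT counts too. This is the A form of the core, and the G form, GCGTG, was not searched. CACGTG, which holds the motif on both strands and is also the E-box of other factors, counts as 2 matches. The 4 HIF targets with the smallest p were Egln3, Pdk1, Ankrd37 and Ak4, and 1 of them, Ankrd37, held the motif in this window. The letters GCGTG occur in the windows of Pdk1, Ak4 and Ankrd37 but do not count as matches. The Ankrd37 promoter lies on the plus strand at chr16:53001257-53001506 and holds 3 matches. It is given 5′ to 3′ with the matches in capitals.
Ankrd37: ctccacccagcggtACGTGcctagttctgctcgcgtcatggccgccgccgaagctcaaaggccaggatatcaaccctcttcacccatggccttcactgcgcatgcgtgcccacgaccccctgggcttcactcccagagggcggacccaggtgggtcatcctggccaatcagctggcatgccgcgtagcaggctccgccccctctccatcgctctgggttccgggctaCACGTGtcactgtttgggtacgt

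The next promoters with a match among the called rises of both lists, in order of p, are shown as 25 bases around the match nearest the start, in the direction of the gene, again with the matched letters in capitals. They are Pfkfb3 (chr17:71944882-71944906, plus strand), Bnip3 (chr1:203155046-203155070, minus strand), Pygl (chr6:94476419-94476443, minus strand) and P4ha2 (chr10:38743843-38743867, plus strand). Higd1a (chr8:130401066-130401090, minus strand), Fam162a (chr11:78186210-78186234, plus strand) and Mif (chr20:12790278-12790302, plus strand) follow.
Pfkfb3: ccttctctcCACGTGaaagggggct
Bnip3: cacgcgccgCACGTGccacacgcgc
Pygl: tccgcgcgctACGTGacccggacgt
P4ha2: ggaggtggggACGTGgcggaggctc
Higd1a: acccaggcctCACGTctgacacgaa
Fam162a: gctcgtcgcgCACGTcccgcacgcc
Mif: cccctttgggACGTGgcctgacgtc

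In all, 35 genes of the HIF and glycolysis lists rose between the days, 33 of these had a promoter in the table, and 15 of the 33 (45.5%) held the motif. Of the other members of these lists, 22 had a promoter and 7 (31.8%) held it. The share was 19.5% of the 11806 tested genes with a promoter and 16.9% of all 27457 promoters of that length. Among the cell cycle genes that fell it was 6 of 24. These shares are descriptions. A match is not a bound site, and a promoter without one says only that these letters are not in this window.

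Genes were tested with limma, in 1 fit to all 16 arrays, and called at a Benjamini-Hochberg adjusted p under 0.05 over all 15097 probe sets. Values are log2 expression after RMA normalization, changes are day 6 minus day 5, and the error after a change is its moderated standard error. Over both strains, with 4 arrays a day, 698 probe sets of 675 genes were called, or 4.62% of those tested. Of these 307 were higher on day 6 (2.03%) and 391 were lower (2.59%), and the median change of all probe sets was 0.01. Whether the arrays separate was counted as well. The calls were made from the same arrays, so separation is largely built into them and is not separate support. Every day 6 array lay above the day 5 arrays of its strain for 287 of the 307 rises, against 7.62% of all probe sets, and below them for 389 of the 391 falls, against 9.4%. Rises were mostly moderate, with a median of 0.47, and 25 of them reached 2-fold. Falls had a median of −0.53, and 65 reached 2-fold.

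On arrays of 1 group, values correlated with Pearson's r of 0.987 to 0.9967 across probe sets. The second F344 array of hyperoxia day 6 was unlike the rest, with the narrowest interquartile range (2.813) and the highest median (5.524) of the 16 arrays. It differed from its partner over 2-fold at 76 probe sets, against 1 to 35 in the other groups. Without it 642 probe sets were called. Without its partner, which leaves it alone in its group and its spread taken from the other groups, the count was 1950. Dropping replicate 1 or 2 of the F344 arrays of hyperoxia day 5 gave 462 or 451, dropping those of SD gave 407 or 321, and dropping replicate 1 of SD at day 6 gave 302. Of the 698 probe sets, 273 kept their call whichever of the 16 arrays was omitted. The table holds no detection calls and array values include background, so folds of probe sets near or under the array medians of 5.452 to 5.524 can understate a change. The retina's own genes were present, with mean levels over 16 arrays of 11.3 for the rod arrestin Sag and 9.9 for the rod factor Nrl. Listed genes with no probe set of 1 symbol, among them Kdr, Pecam1 and Mki67, were not analysed here.

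The list of HIF targets had the highest median change of the 31 gene lists examined. Of 38 measured HIF targets outside glycolysis, 21 rose between the days under hyperoxia, 0 fell, and the median change over all 38 was 0.51. Of all probe sets 2.03% rose and 2.59% fell under hyperoxia. In room air the median was −0.03, and 0 rose and 2 fell, where 1.19% of all probe sets rose and 1.65% fell. The largest rise of any probe set was that of Slc16a3, the plasma membrane transporter that exports lactate (probe set 10740209, chromosome 10). On day 6 it stood at 8.25 and 8.42 in SD and 8.53 and 8.13 in F344 retina, against 5.88 and 6.20 in SD and 6.46 and 6.60 in F344 retina on day 5. All 4 day 6 arrays lay above every day 5 array, by well over the spread within a day. The change was 2.05 ± 0.16, or 4.13-fold (adjusted p = 3.82e-06). The room air arrays ran between 7.20 and 8.21 on both days, below 3 of the 4 hyperoxia arrays of day 6 and above every hyperoxia array of day 5.

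**Figure D1:**
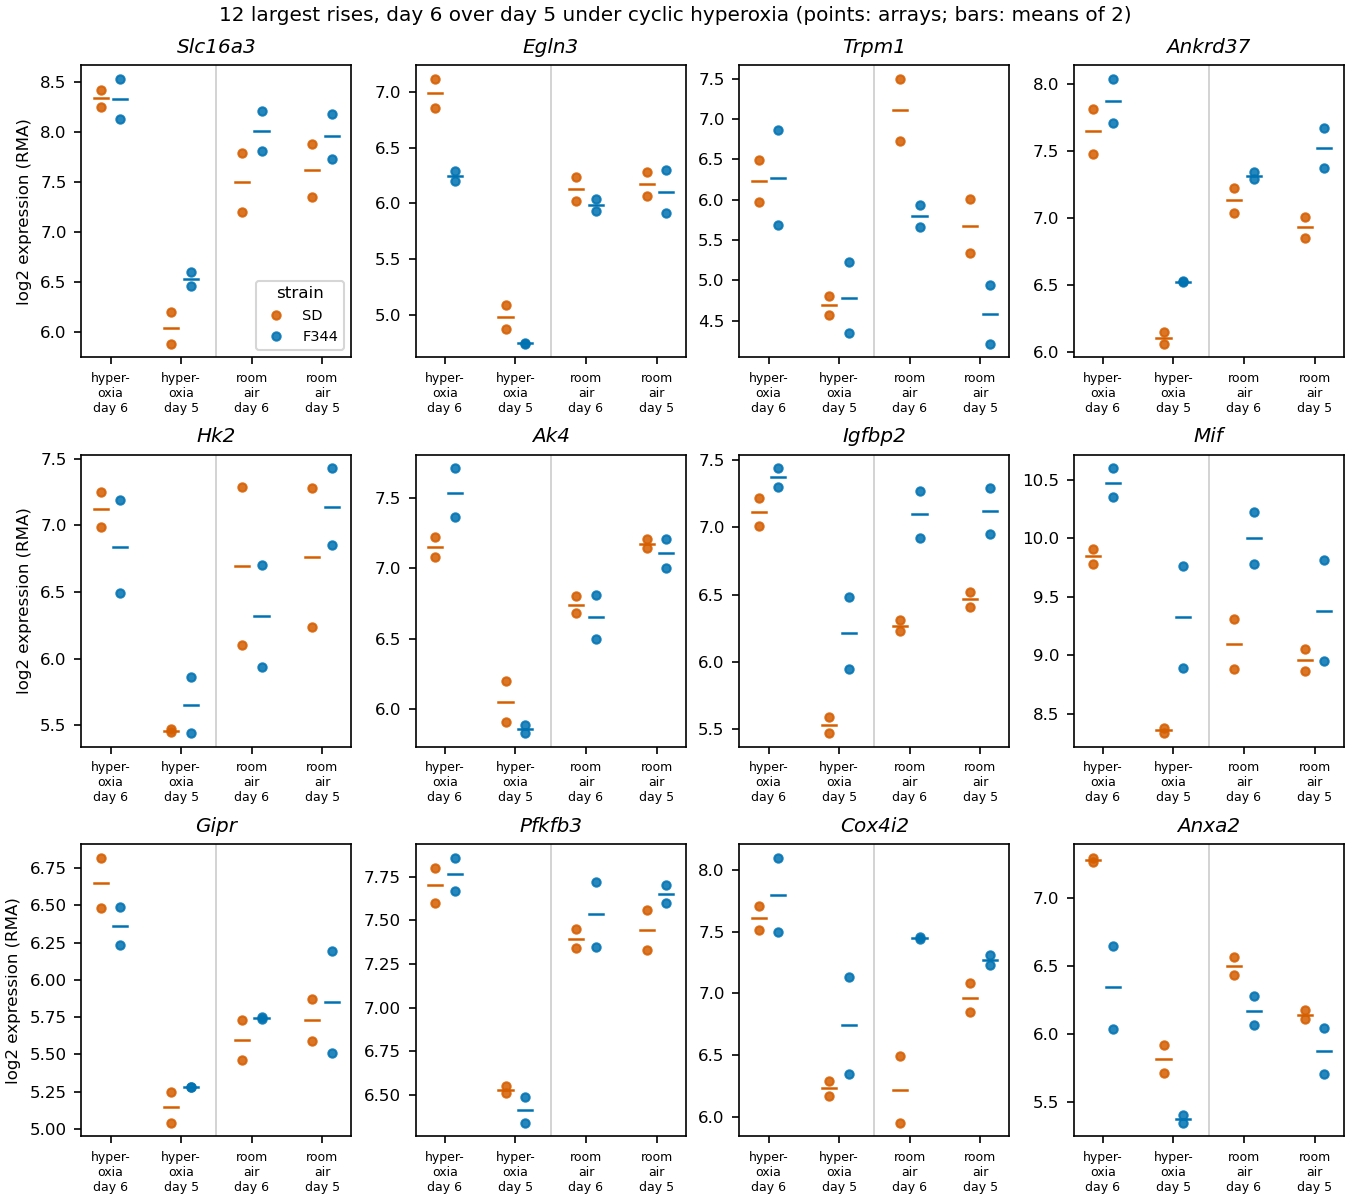
Log2 expression of the 12 largest rises among genes whose days did not overlap in either strain, on each of the 16 arrays, SD in orange and F344 in blue, with bars at the mean of 2 arrays. For Slc16a3 the day 6 hyperoxia arrays (8.13 to 8.53) stand above the day 5 hyperoxia arrays (5.88 to 6.60), while the room air arrays of the 2 days overlap.

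Egln3, a prolyl hydroxylase that is both a HIF target and a brake on HIF, had the smallest p of all probe sets (10889923, chromosome 6). Its values on day 6 were 6.86 and 7.12 in SD and 6.29 and 6.20 in F344, against 4.87 and 5.09 in SD and 4.75 and 4.74 in F344 on day 5. No array overlapped between the days, and the SD arrays of day 6 stood highest. The rise was 1.75 ± 0.10, or 3.37-fold (adjusted p = 3.97e-07). The day 5 values lie under the array medians, so this fold may understate the change. Room air arrays lay between 5.91 and 6.30 on both days.

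Ankrd37, an ankyrin repeat protein induced by HIF whose promoter is printed above (10788224), stood at 7.81 and 7.48 in SD and 7.71 and 8.04 in F344 on day 6, against 6.06 and 6.15 in SD and 6.53 and 6.52 in F344 on day 5. It rose 2.72-fold (1.44 ± 0.10, adjusted p = 2.15e-06), with no overlap of the days. Ak4, a mitochondrial adenylate kinase (10870261, chromosome 5), stood at 7.08 and 7.22 in SD and 7.36 and 7.71 in F344 on day 6, against 5.91 and 6.20 in SD and 5.89 and 5.83 in F344 on day 5. It rose 2.61-fold (1.38 ± 0.10, adjusted p = 3.15e-06). Ak4 moved the other way in room air, where it fell by 0.44 ± 0.10 (adjusted p = 0.0344), and so did Abhd18, a hydrolase-fold protein, which rose by 0.55 under hyperoxia and fell by 0.42 in room air. These were the only probe sets called in opposite directions in the 2 exposures.

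Vegfa, the main growth factor for retinal vessels (10921772, chromosome 9), rose in both strains. On day 6 it stood at 9.19 and 9.29 in SD and 9.33 and 9.37 in F344, against 7.92 and 8.21 in SD and 8.20 and 8.27 in F344 on day 5. The days did not overlap and the strains sat close together, and the rise was 1.15 ± 0.09, or 2.21-fold (adjusted p = 5.33e-06). In room air Vegfa lay between 8.93 and 9.38 on all 8 arrays, a range that holds the hyperoxia arrays of day 6, and its day change there was 0.06 ± 0.09 (adjusted p = 0.851).

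Several members of the HIF list act on or in mitochondria. Pdk1, the kinase that inhibits pyruvate dehydrogenase (10836877, chromosome 3), stood at 8.73 and 8.84 in SD and 8.82 and 8.75 in F344 on day 6. On day 5 it stood at 7.47 and 7.62 in SD and 7.83 and 7.69 in F344. No array overlapped between the days, and the rise was 1.13 ± 0.08 (2.19-fold, adjusted p = 2.15e-06). Bnip3, which marks mitochondria for removal, is covered by 2 probe sets, and both rose, by 1.02 ± 0.09 (10927826) and 1.03 ± 0.08 (10726457). Bnip3l, its close relative in the same list, had 0.25 ± 0.08 and was not called (adjusted p = 0.103). On the first Bnip3 probe set the 4 day 6 arrays ran from 10.25 to 10.82 and the 4 day 5 arrays ran between 9.41 and 9.83. Higd1a, a mitochondrial protein induced by hypoxia, rose by 0.74 and Fam162a, which HIF also induces in mitochondria, by 0.88 (adjusted p = 0.000108 and 0.000114). Cox4i2, the subunit of cytochrome c oxidase used at low oxygen, which is not in the list (10840895), stood at 7.51 and 7.71 in SD and 7.50 and 8.10 in F344 on day 6, against 6.29 and 6.17 in SD and 6.35 and 7.13 in F344 on day 5. It rose by 1.22 ± 0.17 (2.34-fold, adjusted p = 0.000307), and within each strain the days did not overlap.

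Members with other roles rose too. The collagen prolyl hydroxylases P4ha2 and P4ha1 rose by 0.98 and 0.84, the lysyl hydroxylase Plod2 by 0.44 and the collagen crosslinker Loxl2 by 0.58. Mif, a cytokine and tautomerase (10829649), rose by 1.32 ± 0.19 (adjusted p = 0.000657). It ran between 9.78 and 10.60 on day 6 and between 8.33 and 9.76 on day 5, with SD at 8.38 and 8.33 and F344 at 8.89 and 9.76 on day 5. Mif has near-identical copies in rodent genomes, so its probes are uncertain. Ddit4, an inhibitor of mTOR signalling, rose by 0.89, and the repressors Bhlhe40 and Bhlhe41 by 0.65 and 0.59. The secreted stanniocalcin Stc2 rose by 0.66, the annexin Anxa1 by 0.77 and the lipoprotein receptor Vldlr by 0.43. Of the 17 members that were not called, Epo had a change of 0.14 ± 0.09 (adjusted p = 0.448) and Edn2, an endothelin that injured photoreceptors release, one of −0.15 ± 0.08 (adjusted p = 0.35). Car9, a carbonic anhydrase often used as a hypoxia marker, had −0.24 (adjusted p = 0.0811), Ndrg1 had 0.11 and Mxi1 0.03.

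**Figure D2:**
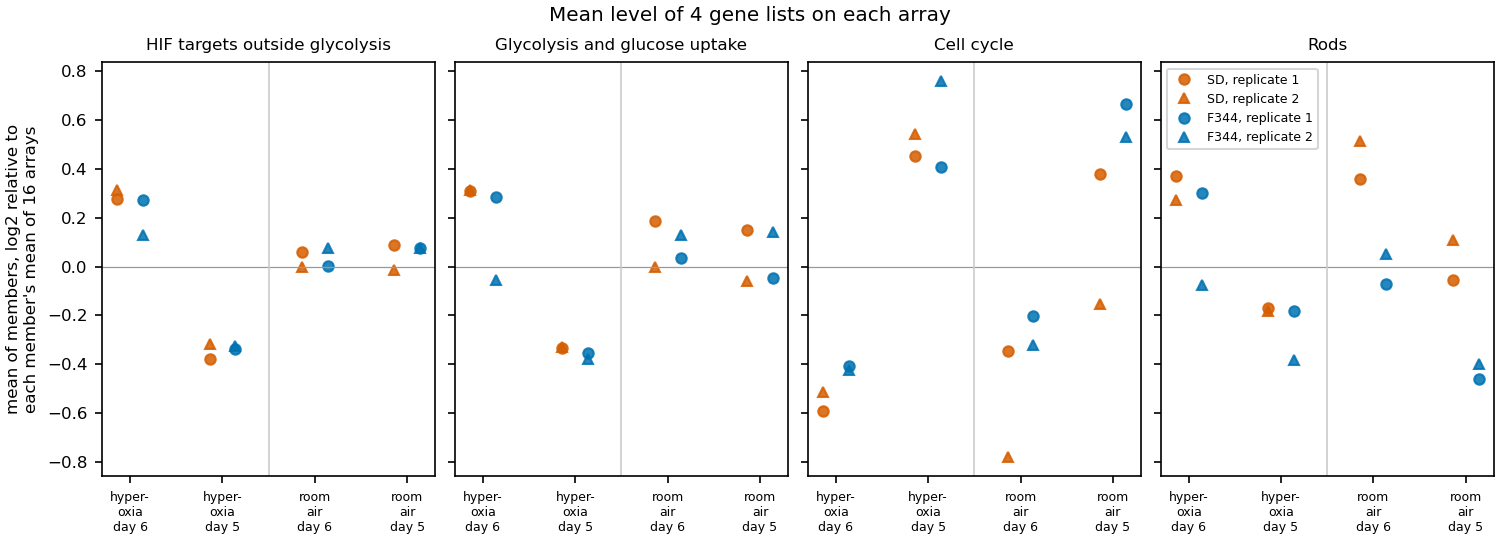
Mean log2 level of 4 gene lists on each array, relative to each member's mean over 16 arrays; circles are replicate 1 and triangles replicate 2. The HIF list lies at 0.13 to 0.32 on day 6 and at −0.38 to −0.32 on day 5 under hyperoxia, with room air between them at −0.01 to 0.09, while the cell cycle and rod lists move with the day in both exposures.

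Taken array by array, the 38 HIF targets averaged 0.28 and 0.32 in SD and 0.27 and 0.13 in F344 on day 6, on a scale where 0 is each gene's mean over all arrays. On day 5 they averaged −0.38 and −0.32 in SD and −0.34 and −0.32 in F344. Room air arrays lay between these, from −0.01 to 0.09 over both days. The F344 array that stands apart was the lowest of the 4 day 6 arrays, at 0.13.

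Glycolysis genes rose at many steps. Of 24 measured genes of glycolysis, glycogen use and glucose uptake, 14 rose and 0 fell, where 2.03% of all probe sets rose. The median of the 24 was 0.49. In room air 0 of the 24 were called in either direction, with a median of 0.02. Hk2, the inducible hexokinase (10863430), stood at 6.99 and 7.25 in SD and 7.19 and 6.49 in F344 on day 6, against 5.45 and 5.47 in SD and 5.44 and 5.86 in F344 on day 5. The rise of 1.43 ± 0.27 was 2.69-fold (adjusted p = 0.00496), with a larger error than most of the largest rises, and the F344 arrays of day 6 lay far apart. In room air Hk2 spread from 5.94 to 7.43.

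Pfkfb3, which makes the activator of phosphofructokinase and whose promoter holds CACGTG (10796149, chromosome 17), stood at 7.60 and 7.80 in SD and 7.86 and 7.67 in F344 on day 6, against 6.51 and 6.55 in SD and 6.49 and 6.34 in F344 on day 5. All day 6 arrays lay over 1 log2 unit above the day 5 arrays, and the rise was 1.26 ± 0.10 (2.40-fold, adjusted p = 3.82e-06). Pfkl, the liver form of phosphofructokinase itself (10829290, chromosome 20), ran between 9.72 and 9.81 on day 6 and between 8.52 and 8.77 on day 5, a rise of 1.15 ± 0.10 (adjusted p = 6.92e-06). The platelet form Pfkp rose by 0.59 and the muscle form Pfkm had a change of 0.00 (adjusted p = 0.993), and no test compared the 3 genes.

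Further down the pathway Gpi rose by 0.69, the aldolases Aldoa and Aldoc by 0.84 and 0.62, the isomerase Tpi1 by 1.02, Pgk1 by 0.67, the pyruvate kinase Pkm by 0.41 and the lactate dehydrogenase Ldha by 0.51. Tpi1, Pgk1, Ldha and Gapdh have near-identical copies elsewhere in rodent genomes, so probes may be shared. Gapdh, whose many probe sets gave 0.23 to 0.39 on both sides of the threshold, had 0.25 ± 0.08 on its brightest set (adjusted p = 0.0759). Other members that were not called include Eno1, an enolase, at 0.11 ± 0.10 and Ldhb, the heart form of lactate dehydrogenase, at 0.18 ± 0.11. The glucose transporter Slc2a1 had 0.48 ± 0.15 (adjusted p = 0.0786). It averaged 9.84 ± 0.12 on day 6 and 9.36 ± 0.24 on day 5 (standard deviation, n = 4 each). Arrays of the days did not overlap, but Slc2a1 varied from 9.08 to 10.23 over the room air arrays.

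Glycogen genes were part of the rise. Pygl, the liver form of glycogen phosphorylase (10890441, chromosome 6), stood at 7.87 and 7.95 in SD and 6.50 and 6.02 in F344 on day 6, against 6.49 and 6.48 in SD and 5.68 and 5.65 in F344 on day 5. SD lay above F344 on both days, and the rise over both strains was 1.01 ± 0.11 (2.01-fold, adjusted p = 2.44e-05). The synthase Gys1 rose by 0.48 and the branching enzyme Gbe1 by 0.47. On the F344 array of day 6 that stands apart the glycolysis list averaged −0.05, lower than the other 3 day 6 arrays. With this array left out, Hk2 rose by 1.601 and Pygl by 1.129, both more than with all arrays. Ak4 rose by 1.295 and Ankrd37 by 1.36, both less than with all arrays. Its part in the result was not otherwise tested.

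Some of the largest rises lay outside these lists. Igfbp2, an insulin-like growth factor binding protein (10924223), stood at 7.01 and 7.22 in SD and 7.30 and 7.44 in F344 on day 6, against 5.59 and 5.47 in SD and 5.95 and 6.48 in F344 on day 5. It rose 2.59-fold (1.37 ± 0.12, adjusted p = 7.26e-06), and its day change in room air was −0.11. Gipr, the receptor of a gut incretin (10719394), ran between 6.23 and 6.82 on day 6 and between 5.04 and 5.28 on day 5, a 2.45-fold rise. Anxa2, a membrane-binding annexin (10911287), stood at 7.30 and 7.27 in SD and 6.65 and 6.04 in F344 on day 6, against 5.92 and 5.72 in SD and 5.41 and 5.35 in F344 on day 5 (1.22 ± 0.12, adjusted p = 1.73e-05).

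Of 24 measured antioxidant genes 3 rose and 0 fell, where 2.03% of all probe sets rose. Metallothioneins, which bind zinc and copper, were among them. Both probe sets of Mt1 rose, by 1.07 ± 0.09 (10796411) and 1.10 ± 0.10 (10809392). On the first, day 6 arrays ran from 8.99 to 9.22 and day 5 arrays ran between 7.69 and 8.47. Mt2A rose by 0.60 ± 0.09 (adjusted p = 0.000598) on 1 probe set, and its other probe set gave 0.35 (adjusted p = 0.064). The third called member of the 24 in that list was the ferritin heavy chain Fth1 at 0.65 (adjusted p = 0.0452), which has many copies and was called in 6 of the 16 fits that omit an array. The list had 9 called members without replicate 1 of F344 at hyperoxia day 6. Nqo1, the usual reporter of the antioxidant factor NRF2, had 0.28 ± 0.09 (adjusted p = 0.104).

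The 35 measured angiogenic ligands and receptors had a median change of 0.11. Of these, 5 rose and 0 fell, where 2.03% of all probe sets rose and 2.59% fell. The 5 were Vegfa, Igfbp2, Adm, Flt1 and Tek. Vegfa and Adm are also in the HIF list, and Flt1 and Tek in the endothelial list. Adm, the vasodilator adrenomedullin (10709875), stood at 5.63 and 5.83 in SD and 4.95 and 4.84 in F344 on day 6, against 4.71 and 4.85 in SD and 4.23 and 4.47 in F344 on day 5. It rose by 0.75 ± 0.10 (adjusted p = 0.000249) within each strain without overlap, at levels near or under the array medians. Angpt2, the destabilising partner of Angpt1, had 0.25 ± 0.11 (adjusted p = 0.212). Igf1, which retinal vessels need beside VEGF, had 0.03 ± 0.09 (adjusted p = 0.882), with 7.66 to 7.88 on day 6 and 7.60 to 7.99 on day 5.

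A minority of endothelial genes rose. Of 26 measured markers 5 rose and 0 fell, where 2.03% of all probe sets rose and 2.59% fell. The median of the markers was 0.16, against 0.02 in room air, and 24 of the 26 changes were above 0. Of the 26, 0 passed the test of hyperoxia minus room air described below. Signs leaned upward in other lists of low level too, with 10 of 11 lens and 10 of 12 skeletal muscle changes above 0. Among immediate early genes it was 14 of 26. Whether low level accounts for the signs was not tested. More or fewer endothelial cells and more or less RNA per cell cannot be told apart in whole retina. Cd34, a surface protein of vessels (10766869), stood at 5.00 and 5.03 in SD and 5.11 and 5.14 in F344 on day 6, against 4.61 and 4.59 in SD and 4.70 and 4.34 in F344 on day 5 (0.51 ± 0.11, adjusted p = 0.0133). Tek, the angiopoietin receptor (10869946), stood at 4.50 and 4.52 in SD and 4.83 and 4.45 in F344 on day 6, against 4.11 and 4.27 in SD and 4.21 and 4.06 in F344 on day 5 (0.41 ± 0.11, adjusted p = 0.0394). In room air Tek ran from 4.78 to 5.33, so all but 1 of the hyperoxia arrays, day 6 included, lay below it.

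Flt1, the VEGF receptor that also acts as a decoy, rose by 0.31, the fenestration protein Plvap by 0.38 and the adhesion receptor Adgrl4 by 0.37. These calls depend on single hyperoxia arrays, in both directions. The endothelial and angiogenic counts reached their highest without the F344 array of day 6 that stands apart. In that fit the change of Tek was 0.508 and that of Plvap 0.308. Other omissions lowered the counts. The limma fit called 0 of the 26 markers when replicate 2 of either strain at day 5, or either SD array of day 6, was omitted. It called 1 when replicate 1 of SD at day 5 was omitted and 3 when replicate 1 of F344 at day 5 was. The count was also 1 when only probe sets with a mean level above 5.474, the median of all values, were tested. That filter removes many of the markers, whose median level was 4.76, and angiogenic genes of low level such as Tek. Lower counts under it are therefore no test of the removed genes. The angiogenic count of 5 became 3 on omitting any 1 of the day 5 hyperoxia arrays or an SD array of day 6, and with the brighter probe sets alone. Of 13 pericyte and smooth muscle markers 0 were called, although all 13 changes were above 0, with a median of 0.18. The largest of these, that of the pericyte regulator Rgs5, was 0.64 ± 0.26 (adjusted p = 0.197). Lens and skeletal muscle lists of low level leaned upward too, as given above.

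**Figure D3:**
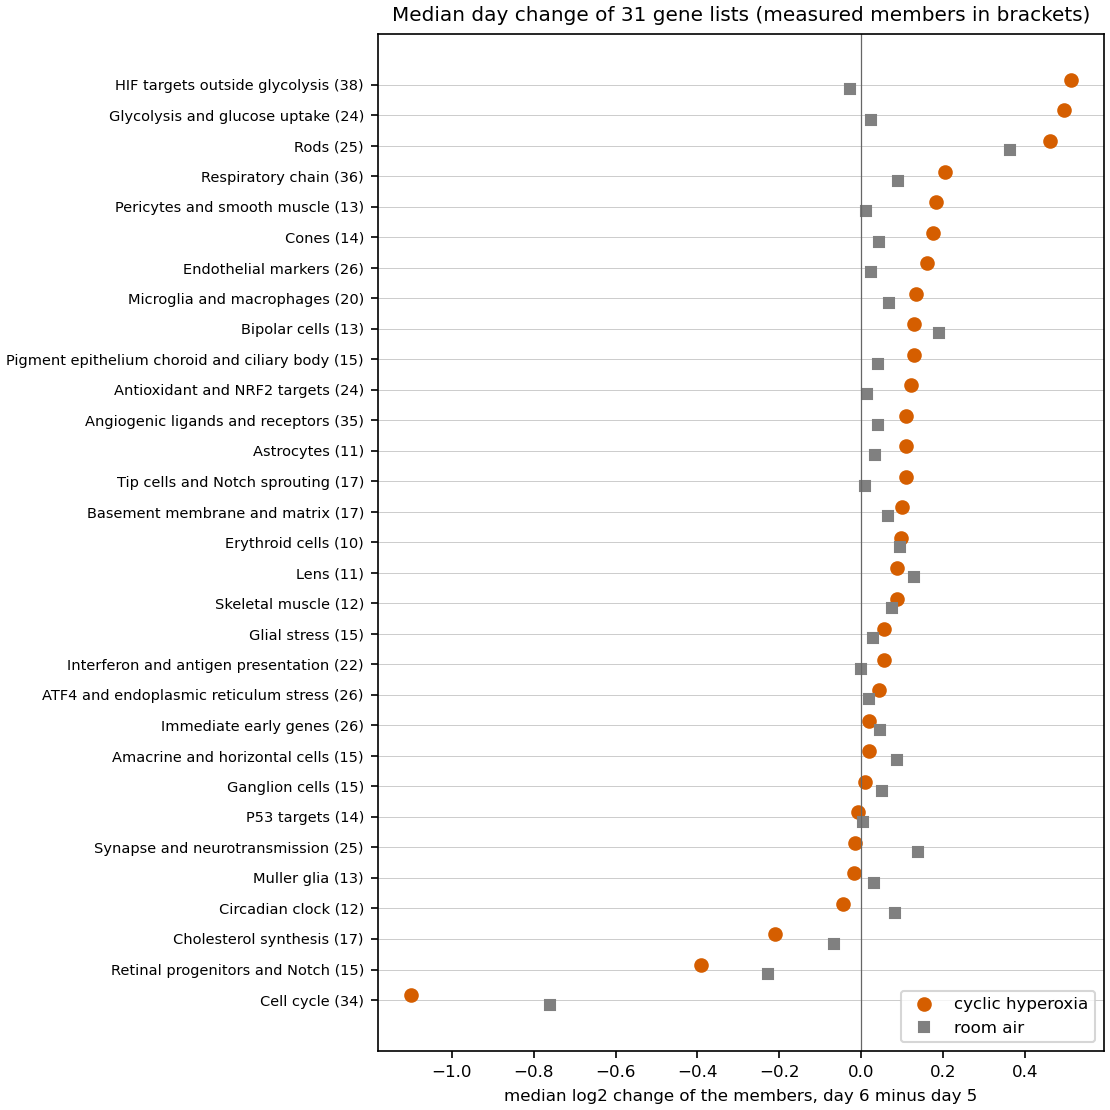
Median day change of the measured members of 31 gene lists under cyclic hyperoxia (circles) and in room air (squares), in log2 units. The HIF and glycolysis lists stand at 0.51 and 0.49 under hyperoxia and near 0 in room air, whereas the cell cycle list lies at −1.10 and −0.76 and the rod list at 0.46 and 0.36.

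The falls between the days were led by genes of cell division. Of 34 measured cell cycle genes 32 fell and 0 rose, where 2.59% of all probe sets fell. The median of the list was −1.10, and all 34 changes were below 0. In room air 27 of the 34 fell, with a median of −0.76, where 1.65% of all probe sets fell. Of the 12 largest falls of all genes, 7 are in this list, and the other 5 (Pbk, Kif4a, Cep55, Ndc80 and Nek2) are known for roles in mitosis and fell by 1.51 to 1.63.

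Nusap1, which bundles spindle microtubules (10838843, chromosome 3), had the largest fall. It stood at 7.32 and 7.34 in SD and 7.34 and 7.13 in F344 on day 6, against 9.06 and 9.17 in SD and 8.60 and 8.99 in F344 on day 5. All day 6 arrays lay more than 1 unit below day 5, a fall by 1.67 ± 0.17 or 3.19-fold (adjusted p = 1.93e-05). In room air it fell by 1.32 ± 0.17 (adjusted p = 0.00129).

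Top2a, the topoisomerase that untangles chromosomes before division (10746976), averaged 8.49 ± 0.18 on day 6 and 10.07 ± 0.19 on day 5 (standard deviation, n = 4 each; −1.58 ± 0.21, adjusted p = 0.000274). Ccnb1, the mitotic cyclin, ran between 7.43 and 7.79 on day 6 and between 8.91 and 9.36 on day 5 (−1.52 ± 0.16). Rrm2, the ribonucleotide reductase subunit needed to make DNA precursors, changed by −1.52 ± 0.15. Plk1, a kinase of mitotic entry, had the smallest p of the list, with a fall by 1.16 ± 0.10 (adjusted p = 7.26e-06).

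Falls differed in size within the list. Ect2, Bub1 and Kif11, which act in cytokinesis, the spindle checkpoint and the spindle, fell by 1.66, 1.60 and 1.46. The replication helicase subunits Mcm2, Mcm5, Mcm6 and Mcm7 fell by 0.70, 1.11, 0.67 and 0.36. The 2 members that were not called were Pcna, the sliding clamp of replication, at −0.23 (adjusted p = 0.311), and Tyms, the thymidylate synthase, at −0.28 (adjusted p = 0.269). The difference between the mitotic and the replication genes was not tested. Between 25 and 33 of the 34 genes were called when single arrays were omitted.

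Progenitor genes fell with them. Of 15 measured genes of retinal progenitors and Notch signalling 7 fell and 0 rose, where 2.59% of all probe sets fell. The median of the 15 was −0.39, and all 15 changes were below 0. Fgf19, the growth factor that marks dividing retinal progenitors in mice under the name Fgf15 (10712629), stood at 4.97 and 5.50 in SD and 4.82 and 4.77 in F344 on day 6, against 6.41 and 6.76 in SD and 5.95 and 6.02 in F344 on day 5. It fell by 1.27 ± 0.13 (adjusted p = 1.84e-05) and in room air by 1.10 ± 0.13.

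Ccnd1, the cyclin of retinal progenitors, ran between 10.07 and 10.31 on day 6 and between 10.70 and 11.11 on day 5, a fall by 0.63 ± 0.12 (adjusted p = 0.00608). The Notch target Hes5 fell by 0.57, its ligand Dll1 by 0.54, the stem cell factor Sox2 by 0.53, Notch1 itself by 0.47 and the eye field factor Pax6 by 0.26. Among hyperoxia arrays, the count of 7 became 2 on omitting replicate 2 of either strain at day 5 or replicate 1 of SD at day 6. It became 3 on omitting replicate 1 of SD at day 5 or replicate 2 of SD at day 6, and 4 on omitting replicate 2 of F344 at day 6.

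Many rod genes rose over the same day. Of 25 measured 13 rose and 0 fell, with a median of 0.46, where 2.03% of all probe sets rose. In room air 8 of the 25 rose, with a median of 0.36, where 1.19% of all probe sets rose. Grk1, a kinase that helps end the photoreceptor light response (10792743), stood at 7.23 and 7.26 in SD and 7.79 and 6.80 in F344 on day 6, against 6.45 and 6.42 in SD and 6.30 and 5.91 in F344 on day 5. The rise was 1.00 ± 0.17 under hyperoxia (adjusted p = 0.0023) and 1.02 ± 0.17 in room air, and the difference between them was −0.03 ± 0.24.

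Gnat1, the rod transducin (10920139), stood at 7.58 and 7.64 in SD and 6.80 and 5.80 in F344 on day 6, against 6.26 and 6.16 in SD and 5.92 and 5.79 in F344 on day 5. One F344 array of day 6, the one that stands apart, did not leave the range of day 5, and the rise over both strains was 0.93 ± 0.16 (adjusted p = 0.00231). Nrl, the factor that commits precursors to the rod fate, ran between 10.17 and 10.52 on day 6 and between 9.75 and 9.87 on day 5 (0.52 ± 0.08). Rom1, a disc rim protein, rose by 0.65, and Pde6b, a subunit of the rod phosphodiesterase, by 0.73.

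The F344 array of day 6 that stands apart averaged −0.075 over the rod list, against 0.30 on its partner and 0.37 and 0.27 on the SD arrays. With this array left out, Gnat1 rose by 1.175 and Grk1 by 1.242, both more than with all arrays. Its part in the rod result was not otherwise tested. The rod count became 8 on omitting replicate 2 of F344 or either SD array at hyperoxia day 5, and 6 on omitting replicate 1 of SD at day 6. Of 14 cone genes 3 rose, where 2.03% of all probe sets did. These 3 were led by the short-wave opsin Opn1sw at 0.58 ± 0.09, which stood at 9.26 to 10.04 on day 6 and 8.83 to 9.31 on day 5. The cone channel subunit Cngb3 had −0.39 (adjusted p = 0.0615). The cone count was 6 without replicate 1 of F344 at hyperoxia day 6 and 2 without any 1 of the other hyperoxia arrays but its partner, or without either F344 array of room air day 6. Rxrg, a nuclear receptor of cones, was among the 3 and was called in 7 of the 16 fits.

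Bipolar cell genes gave 2 of the largest rises. Trpm1, the channel of ON bipolar cells (10707675), stood at 6.49 and 5.97 in SD and 6.86 and 5.68 in F344 on day 6, against 4.57 and 4.81 in SD and 5.23 and 4.34 in F344 on day 5. The days did not overlap although the F344 arrays of day 6 lay over 1 unit apart. It rose 2.85-fold (1.51 ± 0.27, adjusted p = 0.00347), and in room air by 1.33 ± 0.27. Scgn, a calcium sensor of cone bipolar cells, rose by 1.49 ± 0.34 (adjusted p = 0.0176) and was called in 12 of the 16 fits that omit an array. Those without the call omitted replicate 2 of F344 or either SD array at hyperoxia day 5, or replicate 1 of SD at day 6. Its F344 arrays overlapped, with 7.34 and 5.68 on day 6 and 5.73 and 4.54 on day 5.

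In all, 4 of 13 bipolar genes rose, where 2.03% of all probe sets did, and the median of the 13 was 0.13. The others were Pcp2, an ON bipolar protein, at 0.69 and the glutamate receptor Grm6 at 0.42. That count became 1 on omitting replicate 2 of F344 at hyperoxia day 5 or replicate 1 of SD at day 6, and 2 on omitting replicate 2 of SD at day 5. Ganglion cells, which are born earlier, had 0 of 15 markers called and a median of 0.01.

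Markers of tissues next to the retina were checked as well. Lens had 0 of 11 members called, with a summed linear signal of 284 to 482 on day 6 and 268 to 544 on day 5, and skeletal muscle had 0 of 12. Pigment epithelium, choroid and ciliary body had 1 of 15 called, the transthyretin gene Ttr at 0.67, with sums of 2560 to 3226 on day 6 and 2391 to 2808 on day 5. Its defining marker Rpe65 lay between 4.20 and 4.66 on day 6 and between 3.92 and 4.09 on day 5, under the array medians.

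Both erythroid genes that were called were beta globins. Hbb, a beta globin (10724315), stood at 7.73 and 8.02 in SD and 7.89 and 7.84 in F344 on day 6, against 7.24 and 6.95 in SD and 6.32 and 6.32 in F344 on day 5, and rose by 1.16 ± 0.13. Hbb-b1 rose by 1.03. The 2 globin genes are near-identical, so their probes cannot be told apart, and the other 8 of the 10 erythroid members were not called, with a median of 0.096 over all 10. Their summed linear signal was 929 to 1278 on day 6 and 805 to 871 on day 5, and in room air it was 953 to 1029 on day 6 and 902 to 1138 on day 5. The part of blood in the other changes was not tested. Of 20 microglial genes 2 rose, where 2.03% of all probe sets did. They were the complement genes C1qc (0.46 ± 0.08) and C1qa (0.56 ± 0.12).

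The day change was set against that in room air, since both cover the same day of age. In room air 428 probe sets were called (2.84%), 179 higher (1.19%) and 249 lower (1.65%). The exposures share no arrays but share the estimate of spread. Both called 206 probe sets, 37 higher in both, 167 lower in both and 2 in opposite directions. Calls shared in the same direction were 29.2% of the hyperoxia calls and 47.7% of the room air calls. The overlap of calls lay mainly in the falls, since 42.7% of the hyperoxia falls were also called lower in room air, against 12.1% of the rises called higher. By sign alone, 237 of the 307 rises were above 0 in room air and 368 of the 391 falls were below 0. Of all probe sets 53.8% were above 0 in room air.

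The rises of the hyperoxia arrays, whose median was 0.47, had a median room air change of 0.13. The falls, at −0.53, had one of −0.36. The room air list itself was led by Scgn (1.42), Trpm1 (1.33) and Grk1 (1.02) among rises. Its falls were led by the replication factor Pclaf (−1.34), Nusap1 (−1.32) and Pbk (−1.32).

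**Figure D4:**
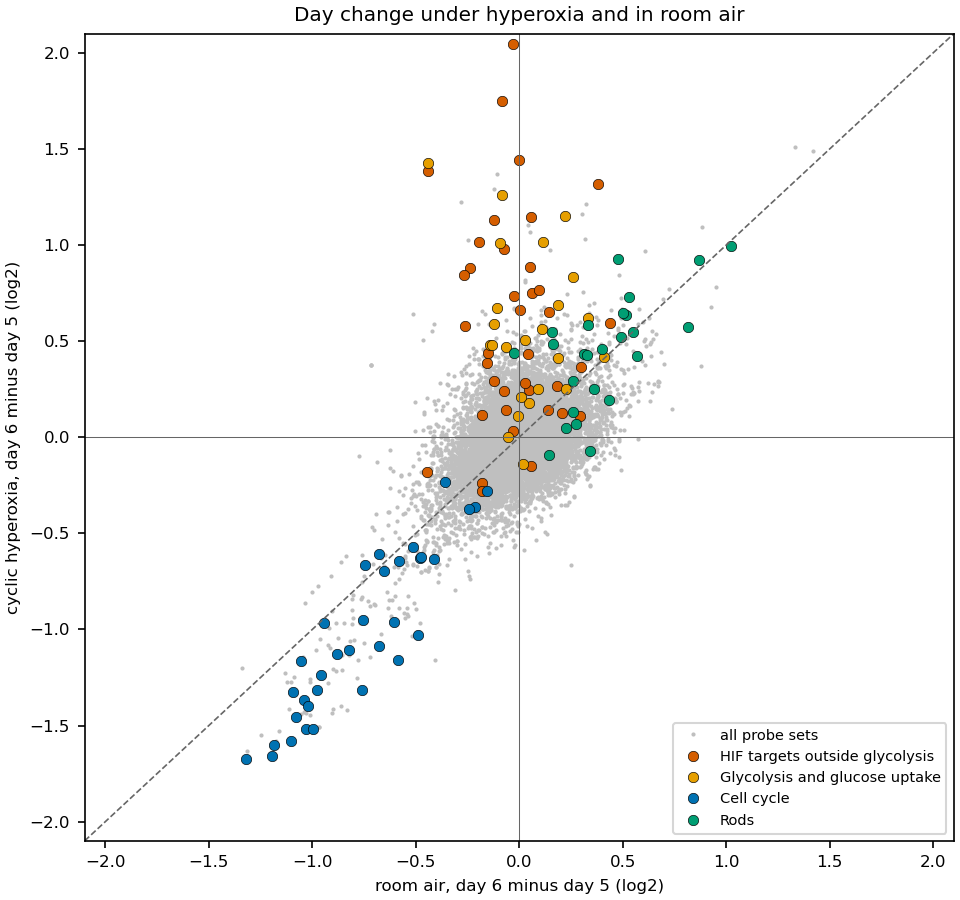
Day change (day 6 minus day 5, log2) of every tested probe set in room air on the horizontal axis and under cyclic hyperoxia on the vertical axis, with the broken line at equal change. HIF and glycolysis genes rise up to 2.05 along the vertical axis at room air changes near 0, whereas cell cycle genes (low left) and rod genes (upper right) lie closer to the line.

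The difference between the 2 day changes was then tested directly, as the hyperoxia change minus the room air change over all arrays. In all 26 probe sets of 24 genes passed, or 0.172%, and every one of them was higher, with 1286 probe sets at an unadjusted p under 0.05. Of the 26, 16 belong to the HIF and glycolysis lists, 11 and 4 genes with 1 extra probe set for Bnip3. The largest differences were those of Slc16a3 (2.08 ± 0.23, adjusted p = 0.000261), Egln3 (1.83 ± 0.15, adjusted p = 1.66e-05) and Ak4 (1.83 ± 0.15, adjusted p = 1.66e-05). Vegfa differed by 1.09 ± 0.13 (adjusted p = 0.000861), Pdk1 by 1.25, Pfkfb3 by 1.34 and Pfkl by 0.93.

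Genes outside the HIF and glycolysis lists that passed were Cox4i2, Igfbp2, Gipr, Mt1, Abhd18, Mgarp, Tm4sf1, Rnf113a1 and Tpi1l1. Mgarp, a mitochondrial transport protein, rose by 0.98 under hyperoxia, and Tm4sf1, an endothelial surface protein, by 0.82. Tpi1l1 is named as a copy of Tpi1, so its probes are uncertain. Of the 26 probe sets 20 passed whichever array was omitted. The count was 41 without the F344 array of day 6 that stands apart and 70 without its partner.

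With all 16 arrays, no probe set had a change that was lower under hyperoxia than in room air past the threshold. Without replicate 1 of F344 at hyperoxia day 6, 20 of the 70 that passed were lower, and without replicate 2 of SD at room air day 6 it was 3 of 32. The smallest p of that kind was that of Fads1, a fatty acid desaturase, which fell by 0.59 under hyperoxia and had 0.02 in room air (difference −0.61 ± 0.13, adjusted p = 0.0785). Next came the neuronal growth cone proteins Crmp1 (−0.57) and Dpysl4 (−0.49), and Fam110a (−0.51). Cell cycle genes as a list had a median difference of −0.26 and 0 of 34 called, rod genes 0.03 and 0 of 25, and progenitor genes −0.17 and 0 of 15.

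Strains were compared by the difference of their day changes under hyperoxia, SD minus F344. All 307 rises and all 391 falls had the same sign in each strain. Calls on the mean of both strains favour such probe sets, so this is no test of strain agreement. Tested apart, SD had 223 probe sets called (1.48%), 91 higher (0.603%) and 132 lower (0.874%), and F344 had 186 (1.23%), 43 higher (0.285%) and 143 lower (0.947%). In F344 the share of higher calls among all calls was 23.1%, and it was 40.7% when each array was centred on its median. Both strains called 122 probe sets in the same direction, 54.7% of the SD calls and 65.6% of the F344 calls.

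Of the 15097 probe sets 0 differed between the strains in the limma test at an adjusted p under 0.05, and 524 had an unadjusted p under 0.05. Vegfa changed by 1.18 in SD and 1.12 in F344, a difference of 0.06 ± 0.19. Slc16a3 rose by 2.30 in SD and 1.80 in F344 (difference 0.50 ± 0.32), and the difference for Egln3 was 0.51 ± 0.21. Ak4 had 1.10 in SD and 1.67 in F344 (−0.58 ± 0.21). None of these differences passed adjustment over all probe sets.

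**Figure D5:**
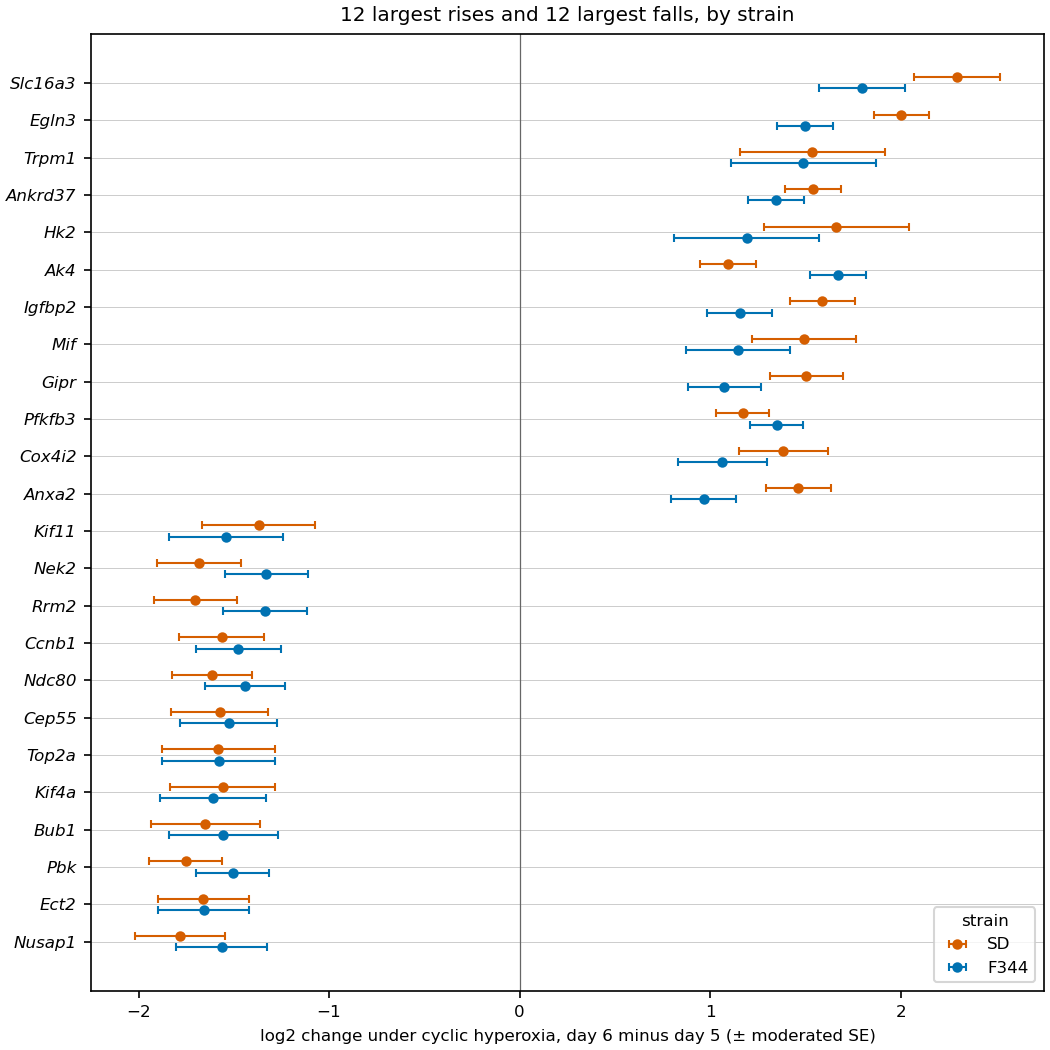
Day change under cyclic hyperoxia of the 12 largest rises and 12 largest falls in SD (orange) and F344 (blue), in log2 units with moderated standard errors. The 24 genes were picked for days that did not overlap in either strain, so both strains lie on the same side of 0 by selection. Slc16a3 has 2.30 in SD and 1.80 in F344.

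The genes with the smallest unadjusted p for the strain difference are given as values. Ube2v2, a partner of ubiquitin-conjugating enzymes, had 0.39 in SD and −0.38 in F344 (difference 0.77 ± 0.18). The small GTPase Rhob had 0.23 and −0.41, and the gamma-secretase subunit Aph1b had 0.45 and −0.33. Pygl had 1.42 in SD and 0.60 in F344 (0.82 ± 0.21). Tuba3a, a tubulin, had −0.43 in SD and 0.42 in F344 (−0.85 ± 0.18), the taste receptor Tas2r114 had −0.26 and 0.51, the lymphocyte receptor Slamf1 had −0.29 and 0.36, and the blood cell gene Was had −0.40 and 0.22. Their adjusted p-values were all 1.0. HIF targets had a median change of 0.56 in SD and 0.48 in F344. Endothelial markers had one of 0.11 in SD and 0.27 in F344. The lens list had 0.03 in SD and 0.15 in F344, and the skeletal muscle list 0.05 and 0.15. All are given as descriptions.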

How the data were processed

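Single-colour Affymetrix gene arrays were hybridised with labelled target from total retinal RNA. The authors deposited log2 values of 27342 probe sets on 16 arrays, made with Partek 6.4 and RMA per the submitters' processing notes, and these were used as deposited. Scanner files, scan dates and slides were not analysed here. Gene names came from GEO's annotation of the platform, which gave 15097 probe sets 1 symbol, 323 several and 11922 none, and 15067 matched the RefSeq gene table of GRCr8 by Entrez identifier. Listed genes were matched by current symbol, and by an older symbol only where no other gene now carries it. RMA brings the arrays to a shared scale, so a shift shared by most genes cannot be seen.

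The 8 group means were estimated over the 16 arrays with limma 3.58.1 in R 4.3.3 (8 residual and 7.28 prior degrees of freedom), with contrasts for the day change over both strains, in each strain, their difference, the room air change and the difference of exposures. P values were adjusted with Benjamini-Hochberg over all probe sets with 1 symbol, threshold 0.05. Where a gene had several sets, the set with the highest mean stood for it in the lists. On simulated data for the day change under hyperoxia, with 15097 probe sets, 36 of 50 changes of 0.5 and 50 of 50 of 1.0, 1.5 and 2.0 (log2) were called, with 12 false calls. The simulated noise was normal and independent, with the same spread on every array. Array weights estimated from the real arrays ran from 0.375 to 1.591, so recovery and false calls can differ in the real data. The number of arrays limits the precision.

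Alternatives were the 8 arrays of an exposure alone, a replicate block, 1 set per gene, all probe sets, a level filter, quantile and median scaling, an intensity trend, array weights and leaving out each array. Genes named by rule were, among called genes whose days did not overlap in either strain, the 12 that rose most and the 12 that fell most. The rule added 3 members per list (lowest p, 31 lists), a set of vascular and hypoxia genes, and for other contrasts the 8 largest called, or the 4 lowest p, in either direction. Further genes are illustrations picked with their values in view. The comparison, its genes and the lists were chosen with earlier results of these data known, so the lists are not independent evidence.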

Additional observations from a re-analysis of the deposited data

Results flagged for a closer look

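The day change of 26 probe sets differed between cyclic hyperoxia and room air in a test of the difference itself (limma, adjusted p under 0.05), with every difference above 0. In log2 units, hyperoxia minus room air, the differences were 2.08 for Slc16a3, 1.83 for Egln3, 1.83 for Ak4, 1.51 for Cox4i2, 1.48 for Igfbp2, 1.45 for Ankrd37 and 1.41 for Gipr. They were 1.34 for Pfkfb3, 1.27 and 1.21 for the 2 probe sets of Bnip3, 1.25 for Pdk1, 1.12 for Fam162a, 1.11 for P4ha1, 1.10 for Pygl and 1.09 for Vegfa. The 2 probe sets of Mt1 gave 1.06 and 1.02, P4ha2 1.05, Abhd18 0.98, Pfkl 0.93, Mgarp 0.83, Tm4sf1 0.79, Rnf113a1 0.79, Pgk1 0.78, Tpi1l1 0.78 and Higd1a 0.76. Those that lost the call when an array was left out were Higd1a, P4ha1, Pgk1, Rnf113a1, Tm4sf1 and Tpi1l1, which passed in 11, 10, 6, 10, 6 and 4 of 16 fits. Groups of 2 arrays do not allow a search for outlying arrays within a group.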

How the results depend on the processing

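The count over both strains (698) was 692 with the 8 hyperoxia arrays alone. Leaving out 1 array gave 302 (SD hyperoxia day 6 replicate 1) to 1950 (F344 hyperoxia day 6 replicate 1). Quantile scaling gave 384 higher and 377 lower and median centring 384 and 353. F344 (186) had 47 calls with array weights and 49 to 1642 with an array left out, and SD (223) had 733 with array weights and 61 to 304. The strain difference (0) had 0 to 3. Room air (428) had 69 calls with its 8 arrays alone and 96 to 666 with an array left out, and its share of higher calls, 41.8%, was 31.2% over every probe set. The difference of exposures (26) had 20 to 70. The cause of these shifts was not tested. Replicate numbers did not pair the arrays (28 pairs of groups, correlations of −0.294 to 0.514, 8 over 0.1). With the replicate block the counts were 643, 177 and 201 for both strains, F344 and SD, 0 for the strain difference, 392 for room air and 26 for the difference of exposures. Among named genes that were not called, some turned sign: Tuba3a (0.022) with median centring, Slamf1 (−0.015) with quantile scaling and, with an array left out, Igf1 (−0.028 and −0.013, range to 0.096), Ube2v2 (−0.016, −0.03, −0.015 and −0.017, range to 0.037), Tuba3a (0.032, 0.053, 0.065 and 0.047, range from −0.077) and Slamf1 (−0.009, range to 0.086). Of 133 named genes 83 were called, and 53 of these in all 16 fits.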

Other observations

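Genes of the respiratory chain and of cholesterol synthesis moved in a few members. Of all probe sets 2.03% rose and 2.59% fell. Of 36 measured respiratory chain genes 5 rose and 0 fell between day 5 and day 6 under hyperoxia. Their median was 0.20 against 0.09 in room air, and 0 of the 36 passed the test of hyperoxia minus room air. The 5 that rose were the complex I subunits Ndufa2 (0.67 ± 0.16), Ndufa8 (0.46), Ndufb3 (0.41) and Ndufb5 (0.31) and the complex II subunit Sdhd (0.40). The count was 0 without replicate 1 of F344 at hyperoxia day 5 or of SD at hyperoxia day 6, 1 or 2 without either SD array of hyperoxia day 5 or replicate 2 of either strain at day 6, 3 without either SD array of room air day 5 or either F344 array of room air day 6, and 11 without replicate 1 of F344 at hyperoxia day 6. Replicate 2 of F344 at hyperoxia day 5, when omitted, gave 8. Of 17 genes of cholesterol synthesis 3 fell, the squalene synthase gene Fdft1 by 0.48 ± 0.09 (adjusted p = 0.00357), Insig1, which restrains the pathway, by 0.45 and Acat2 by 0.49, and Pmvk, a kinase of the mevalonate steps, rose by 0.52. These 4 calls became 1 or 2 without either SD array or replicate 1 of F344 at hyperoxia day 5 or replicate 1 of SD at day 6, 6 without either F344 array of room air day 5 and 7 without replicate 1 of F344 at hyperoxia day 6. Insig1 was called in 14 and Pmvk in 12 of the 16 fits that omit an array.

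In the lists of glia and other neurons, called members were few in number. Of all probe sets 2.03% rose and 2.59% fell. Nes, the intermediate filament nestin, was the 1 of 11 astrocyte genes that was called and fell by 0.56 ± 0.10 (adjusted p = 0.00268), with a room air change of −0.02. Gfap, the filament of reactive glia, had 0.11 ± 0.12, and 0 of 15 glial stress genes were called. Muller glia had 1 of 13 higher, the carbonic anhydrase Car14 (0.69), and 1 lower, Sox2. Among 15 amacrine and horizontal cell genes Calb1 rose by 0.54 and Tfap2b fell by 0.47. Calb1 was called in 6 of the 16 fits, with changes of 0.322 to 0.757, and Tfap2b in 14, and the list had 0 members called without replicate 2 of SD at hyperoxia day 5 or replicate 1 of SD at day 6, and 3 without replicate 2 of F344 at day 6. Of 25 synaptic genes 1 fell, Nlgn1, called in 9 of the 16 fits. Car14 was called in 11 and Sox2 in 10. The tip cell list had 2 of 17 members lower, Notch1, which is also in the progenitor list, and its target Nrarp (−0.48). The median of the 17 was 0.11, and 10 of the 17 changes were above 0. In room air 2 of the 17 were called lower as well.

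Stress lists gave 2 of 26 immediate early genes higher, Ier3 (0.44) and Atf3 (0.39), and 1 of 22 interferon genes, Ifi27 (0.66). For comparison, 2.03% of all probe sets rose and 2.59% fell. Of 14 p53 targets 1 fell, Tp53inp1 (−0.57). In the ATF4 list of 26, Atf3 rose and Psat1, an enzyme of serine synthesis, fell by 1.03 ± 0.25, with its lowest value, 6.37, on the F344 array of day 6 that stands apart. Psat1 was called in 10 of the 16 fits, with changes of −1.452 to −0.613, and lost its call without any 1 of the hyperoxia day 5 arrays or the SD arrays of day 6. Its other probe set had −0.283 ± 0.14 (adjusted p = 0.308). Tp53inp1 was called in 12 of the fits, and Atf3 and Ifi27 in 13. No member was called among 17 basement membrane genes or 12 circadian clock genes.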
